A study of Homo sapiens with 2 samples.

Results

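The 10 genes described here, ETV1, ETV5, ETV6, FLI1, ERG, ELF1, ETS1, ETS2, GABPA and SPI1, encode transcription factors of the ETS family. They were chosen as a gene family, by symbol and with no threshold on their values but with earlier results of these data known, and each matched 1 of the 62702 rows of the deposited count table. RNA was sequenced in 2 libraries of K562, an erythroid-like line grown from a patient with chronic myeloid leukemia. Both libraries came from cells labelled WT and E50_dCas9-KRAB. The labels do not explain E50, and dCas9-KRAB is a Cas9 without nuclease activity that is fused to a repressor domain and lowers transcription at the promoter that a guide RNA names. One library carried the guide labelled sgRNA_Control and the other the guide labelled sgRNA_SMC1A, which targets a subunit of the cohesin ring. In both, guides came by lentivirus, puromycin (1 µg/ml) was present from day 2 to day 6, and cells bright for the blue marker of the guide vector were sorted. The series asks how distal genes that share an enhancer depend on lying in the same small chromatin domain. Each guide has 1 library, so there is no replicate, no p-value is given, and every 95% interval covers counting error only.

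ETS factors bind DNA through a conserved winged helix-turn-helix domain that reads a GGAA core. They differ in partners and in the signals that control them. In blood, SPI1 (PU.1) directs myeloid and B cell fates, FLI1 and ERG act in megakaryocytes, endothelium and stem cells, and GABPA serves many housekeeping and mitochondrial genes. The PEA3 group, ETV1, ETV4 and ETV5, is transcribed in response to growth factor receptors and ERK, and is held down by the repressor CIC, which binds the octamers TGAATGAA and TGAATGGA.

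Depth was 18349209 counts for the control guide and 16864207 for the SMC1A guide. Levels are given as CPM, which is a count relative to library size after TMM scaling. The targeted gene, SMC1A, stood at 460.4 CPM in the control library and 16.3 CPM in the other, so that 3.55% was left (3.14 to 3.99). Of the 10 erythroid markers used to check the K562 label, all had at least 100 counts, and their summed level was 14451 CPM (control) and 13314 CPM (SMC1A guide). HBE1, the embryonic globin gene, stood at 6755 and 10348 CPM and made up most of that sum in the SMC1A library only. The other 9 markers together stood at 7697 and 2966 CPM (log2 ratio, SMC1A guide over control guide, -1.38). Of the 10, 4 were at least 2-fold lower and 0 higher (HBG2, HBG1, HBZ and TFRC, from -1.68 to -1.41), and the highest ratio was that of ALAS2 at 0.86. Over all 11321 genes with at least 100 counts, 2.32% were at least 2-fold lower and 5.11% higher. Markers of other cell types were also read. The fibroblast list summed to 7.87 and 24.7 CPM, with COL1A1 at 64 and 233 counts, COL3A1 at 2 and 154, COL1A2 the other way at 70 and 42, DCN at 2 and 6, and LUM at 0 in both. The endothelial list summed to 13.8 and 43.9 CPM, of which PECAM1 made up 242 and 775 counts, while CDH5, TEK and VWF were at 0 in both libraries. The monocyte list summed to 19.0 and 26.3 CPM, with LYZ at 319 and 428 counts, ITGAM at 10 and 28, CSF1R at 1 and 6 and CD14 at 3 and 1. The lymphoid list summed to 16.1 and 20.1 CPM with MS4A1 at 0 in both, and the epithelial list to 1199 and 1192 CPM. The part of other cells in the differences below was not tested. In RNA pooled from many sorted cells, fewer cells that express a gene and less of its RNA per cell cannot be told apart.

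ETV1 was the ETS gene of the 10 whose level differed most between the libraries, and the 250 bases upstream of its farthest start are printed here because they hold the 2 short motifs that were searched. Those were the ETS core with its common flank, CCGGAA, and the CIC octamers TGAATGAA or TGAATGGA, each on both strands. ETV6, which stood at nearly the same level in both libraries and whose window holds none of these motifs, is printed for comparison. Both are from RefSeq (GRCh38.p14), read 5′ to 3′ on the strand of the gene, with motif matches in capitals. The ETV1 window is chr7:13991426-13991675 on the minus strand and the ETV6 window is chr12:11649424-11649673 on the plus strand. Neither overlaps an exon of GENCODE release 29.
ETV1: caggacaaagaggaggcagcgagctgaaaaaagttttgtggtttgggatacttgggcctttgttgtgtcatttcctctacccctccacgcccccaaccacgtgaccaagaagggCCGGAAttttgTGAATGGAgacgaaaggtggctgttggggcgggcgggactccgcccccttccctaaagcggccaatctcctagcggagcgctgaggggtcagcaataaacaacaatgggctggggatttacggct
ETV6: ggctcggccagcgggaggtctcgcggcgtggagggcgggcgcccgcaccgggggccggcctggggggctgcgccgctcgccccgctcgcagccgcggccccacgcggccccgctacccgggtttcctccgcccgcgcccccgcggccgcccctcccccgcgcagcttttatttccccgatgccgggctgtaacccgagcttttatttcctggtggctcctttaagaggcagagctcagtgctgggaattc
In the ETV1 window CCGGAA begins 136 bases and TGAATGGA 125 bases upstream of the start, and the 2 matches do not overlap. A CIC octamer was found in 2.19% of all 35116 windows of this length and CCGGAA in 14.5%. The table of windows holds 22 of the 28 human ETS genes, 6 of them among the 10 described here (ETV1, ETV6, ERG, ELF1, ETS2 and GABPA). Several genes have more than 1 start, and these 22 genes have 40 windows. A CIC octamer was in 2 of the 40 (1 of ETV1 and 1 of SPDEF) and CCGGAA in 7 (of ETV1, GABPA, ETV2, ETV3L and ELK4). ETV1 has 6 of the windows, of which 3 hold CCGGAA, 1 (the printed one) also holds a CIC octamer, and 3 hold neither. Windows of close starts overlap, and the CCGGAA matches 141 and 137 bases upstream of neighbouring ETV1 starts are the same site, counted in 2 windows. The GABPA match lies 65 bases upstream of its start, on the opposite strand, and GABPA had a log2 ratio of 0.21. The bare core GGAA was not searched, and the printed ETV6 window holds it on both strands. Whether motifs go with levels was not tested. Matches are descriptions of the letters, and these libraries did not measure binding.

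Of the 10 genes, 7 had at least 100 counts summed over both libraries, the limit set for calling a gene at least 2-fold higher or lower. ETV1 was at least 2-fold higher and 0 of the 7 were at least 2-fold lower. Among all 11321 genes with at least 100 counts, 5.11% passed this limit upward and 2.32% downward. Scaling by library totals in place of TMM adds 0.13 to every log2 ratio, so ratios between -0.13 and 0 turn above 0. With 7 genes, a count of 1 says little about the family. The median log2 ratio was 0.18 over the 8 of the 10 that reached 20 counts, beside -0.01 over all 14257 genes with that many. Signs were mixed, with 5 above 0 and 3 below.

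**Figure D1:**
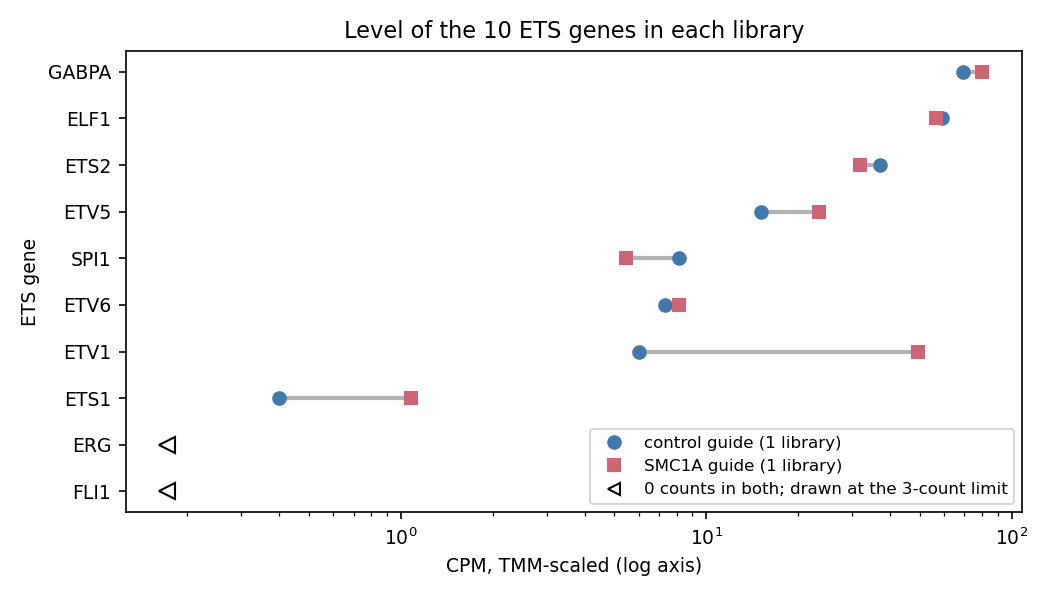
Level of each of the 10 ETS genes in CPM on a log axis, with the control guide (circles) and the SMC1A guide (squares), 1 library each. ETV1 moves from 6.04 to 49.4 CPM, while GABPA, ELF1, ETS2 and ETV6 keep nearly the same level; ERG and FLI1 had 0 counts and are drawn at the limit that 3 counts would give.

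The 3 PEA3 genes differed unequally, and only ETV1 among them passed 2-fold. ETV1 (ENSG00000006468.15, chromosome 7, 13891228 to 13991425, GRCh38) encodes an activator known from prostate, neural and gastrointestinal stromal tissues. It had 106 counts (6.04 CPM) with the control guide and 872 counts (49.4 CPM) with the SMC1A guide. It was thus 8.18-fold higher in the SMC1A library, with a log2 ratio of 3.02 (2.74 to 3.34), and ranked 42 of the 11321 genes from the highest ratio down. When the genes were split into 5 equal groups by mean level, 2.61% of the 2264 genes in the group of ETV1 were at least 2-fold higher. ETV1 is in that group through the SMC1A library, since its control level lies in the range of the lowest group (2.84 to 10.7 CPM), in which 14.5% of 2265 genes were at least 2-fold higher. ETV5 (ENSG00000244405.8, chromosome 3, 186046308 to 186110318), its close relative, had 264 counts (15.0 CPM) and 412 counts (23.4 CPM). That is 1.55-fold higher, with a log2 ratio of 0.63 (0.41 to 0.86), above 0 beyond counting error and under 2-fold. ETV4, the remaining gene of the group, had 360 and 382 counts (20.5 and 21.7 CPM) and a ratio of 0.08 (-0.13 to 0.29), so no difference was detectable at this depth. Count ratios between these genes need no scaling between libraries. For each ETV5 count there were 0.402 ETV1 counts in the control library and 2.12 in the SMC1A library, and for each ETV4 count 0.294 and 2.28. Summed, the 3 genes stood at 41.6 and 94.5 CPM (2.27-fold, log2 ratio 1.18, 1.06 to 1.31). Most of the difference in this sum came from ETV1, and without ETV1 the other genes, ETV4 and ETV5, stood at 35.6 and 45.0 CPM (1.27-fold, log2 ratio 0.34, 0.19 to 0.49).

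GABPA and ELF1 were the most abundant of the 10 genes and lay near the control level. GABPA (ENSG00000154727.11, chromosome 21, 25734570 to 25772460), the DNA-binding subunit of the GA-binding protein, had 1212 and 1405 counts (69.1 and 79.7 CPM) and a ratio of 0.21 (0.09 to 0.32). By library totals its ratio was 0.33 (0.22 to 0.45), and both intervals lie above 0. ELF1 (ENSG00000120690.16, chromosome 13, 40932028 to 41061440), an activator in blood cells, had 1036 and 994 counts (59.0 and 56.4 CPM) and a ratio of -0.07 (-0.19 to 0.06), or 0.06 by library totals. In the annotation ELF1 overlaps WBP4 and GABPA overlaps ATP5PF, each on the opposite strand. The library kit preserves strand, but whether strand was used in counting is not given in the sources used here, so some reads may be shared within these pairs. WBP4 had 290 and 326 counts (log2 ratio 0.16) and ATP5PF 2164 and 2001 (-0.12), so neither partner passed 2-fold.

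ETS2 and ETS1 are the relatives after which the family is named, and both are ERK-responsive activators. ETS2 (ENSG00000157557.13, chromosome 21, 38805307 to 38824955) had 650 and 560 counts (37.0 and 31.8 CPM) and a ratio of -0.22 (-0.39 to -0.06), or -0.09 by library totals. ETS1 (ENSG00000134954.14, chromosome 11, 128458761 to 128587558), best known in lymphoid cells, was close to the detection limit with 7 and 19 counts (0.399 and 1.08 CPM). Its ratio of 1.32 has an interval from 0.12 to 2.93, its 26 counts are too few for the 2-fold call, and the ratio was 0.99 with a prior count of 5. ETV6 (ENSG00000139083.11, chromosome 12, 11649854 to 11895402), a repressor needed for blood stem cells, had 128 and 144 counts (7.30 and 8.16 CPM) and a ratio of 0.16 (-0.19 to 0.52). SPI1 (ENSG00000066336.12, chromosome 11, 47354860 to 47378576) had 143 and 96 counts (8.15 and 5.44 CPM). SPI1 was the lowest of the 10 by ratio, -0.58 (-0.97 to -0.20), or 0.668 of the control level, within the 2-fold limit.

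FLI1 (ENSG00000151702.18, chromosome 11, 128686535 to 128813267) and ERG (ENSG00000157554.20, chromosome 21, 38380027 to 38661780) had 0 counts in both libraries. At this depth 0 counts allow a true level of up to 3 counts (0.171 CPM in the control library, 0.170 CPM in the other), so no ratio is given. Each lies beside a relative on the chromosome. FLI1 is 98976 bases from ETS1, near the detection limit as well, whereas ERG is 143526 bases from ETS2, which stood at 37.0 and 31.8 CPM.

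Levels of different genes can be compared only per length. Counts were divided by the length of each gene's annotated exons and scaled to the same sum in each library, and these values are used for order within a library, not between them. With the control guide the order was ELF1 (40.3), GABPA (37.6), ETS2 (23.8), SPI1 (11.6), ETV5 (7.66), ETV6 (3.05), ETV1 (1.86) and ETS1 (0.165). The counting intervals of ELF1 (37.8 to 42.8) and GABPA (35.5 to 39.8) overlap, and those of the other neighbours in this order do not. With the SMC1A guide the order was GABPA (47.4), ELF1 (42.0), ETS2 (22.3), ETV1 (16.6), ETV5 (13.0), SPI1 (8.50), ETV6 (3.73) and ETS1 (0.487). Here no neighbours overlap (GABPA 44.9 to 49.9 and ELF1 39.4 to 44.7). With the longest transcript as length, ELF1 and GABPA traded places in the SMC1A library (39.9 and 39.3). ETV1 moved from the seventh place of the 10 to the fourth under both lengths. Within the PEA3 group ETV4 was highest in both libraries (16.8 and 19.4), and ETV1 and ETV5 traded places behind it. In the SMC1A library the intervals of ETV4 (17.5 to 21.4) and ETV1 (15.5 to 17.7) overlap. Among all 28 ETS genes ETV1 took 1.09% of their counts in the control library (exact interval 0.889 to 1.31) against 8.66% in the SMC1A library (8.12 to 9.22). Per length, its share of the 28 was 0.540% in the control library and 4.54% in the SMC1A library.

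**Figure D2:**
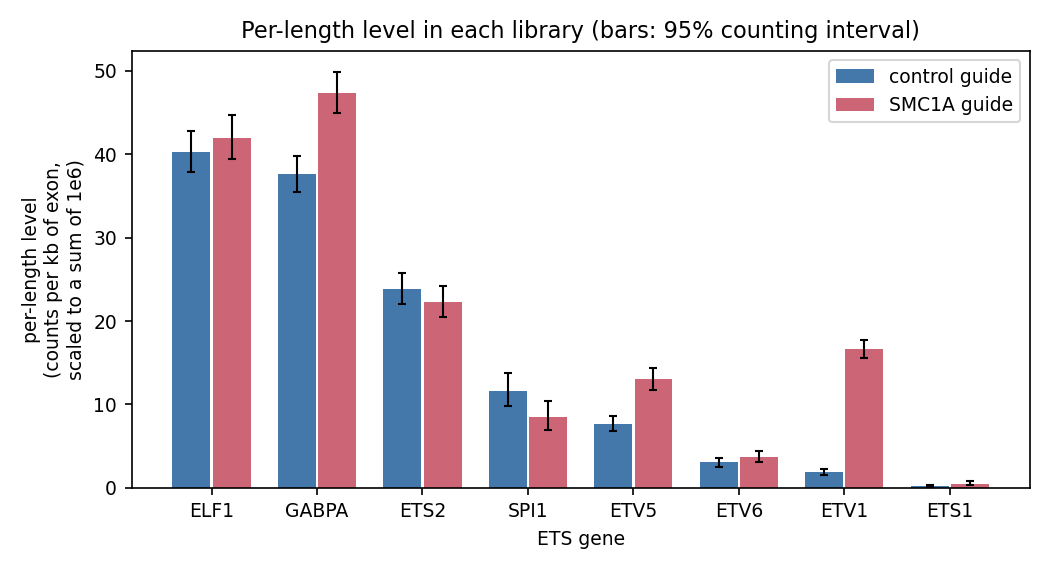
Per-length level (counts per kilobase of annotated exon, scaled to the same sum in each library) of the 8 ETS genes with at least 20 counts, by library, with 95% counting intervals. ELF1, GABPA and ETS2 lead in both libraries, and ETV1 stands at 1.86 (control) and 16.6 (SMC1A guide).

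The other 18 ETS genes were read as a whole list. Of these, 9 had at least 100 counts, and FEV and ELK3 were at least 2-fold higher while 0 were at least 2-fold lower (background 5.11% and 2.32%). FEV, a relative of FLI1 and ERG known from serotonergic neurons, had 16 counts (0.912 CPM) and 153 counts (8.67 CPM). It was 9.51-fold higher, with a log2 ratio of 3.17 (2.50 to 4.09), and ranked 37 of 11321. ELK3, a partner of serum response factor known from endothelium, had 44 counts (2.51 CPM) and 176 counts (9.98 CPM). It was 3.98-fold higher (log2 ratio 1.97, 1.51 to 2.50). Both passed the count limit through the SMC1A library and belong to the lowest of the 5 groups by mean level, where the share is 14.5%. The median over the 10 of these genes with at least 20 counts was -0.19, or -0.06 by library totals.

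The remaining genes with 100 counts lay within 2-fold. ELK1, which also works with serum response factor, had a ratio of -0.61 (-0.74 to -0.47) on 1119 and 739 counts, and ELK4 of the same group -0.02 (0.11 by totals). The repressor genes ERF and ETV3 were at -0.30 and -0.23, and the ELF1 relatives ELF2 and ELF4 at -0.14 and -0.30. ELF2 and ETV4 overlap the opposite-strand genes NOCT and DHX8, to which the same doubt about strand applies. SPIB, a relative of SPI1, had 48 and 28 counts. The 8 others had under 20 counts, among them ETV7 with 0 and 9, SPDEF with 4 and 0, and ETV3L, ELF5 and SPIC with 0 in both. Summed over all 28 genes, ETS counts were 9768 and 10071, a log2 ratio of 0.04, and without ETV1 they were 9662 and 9199, a ratio of -0.08 (-0.12 to -0.04), or 0.05 by library totals.

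**Figure D3:**
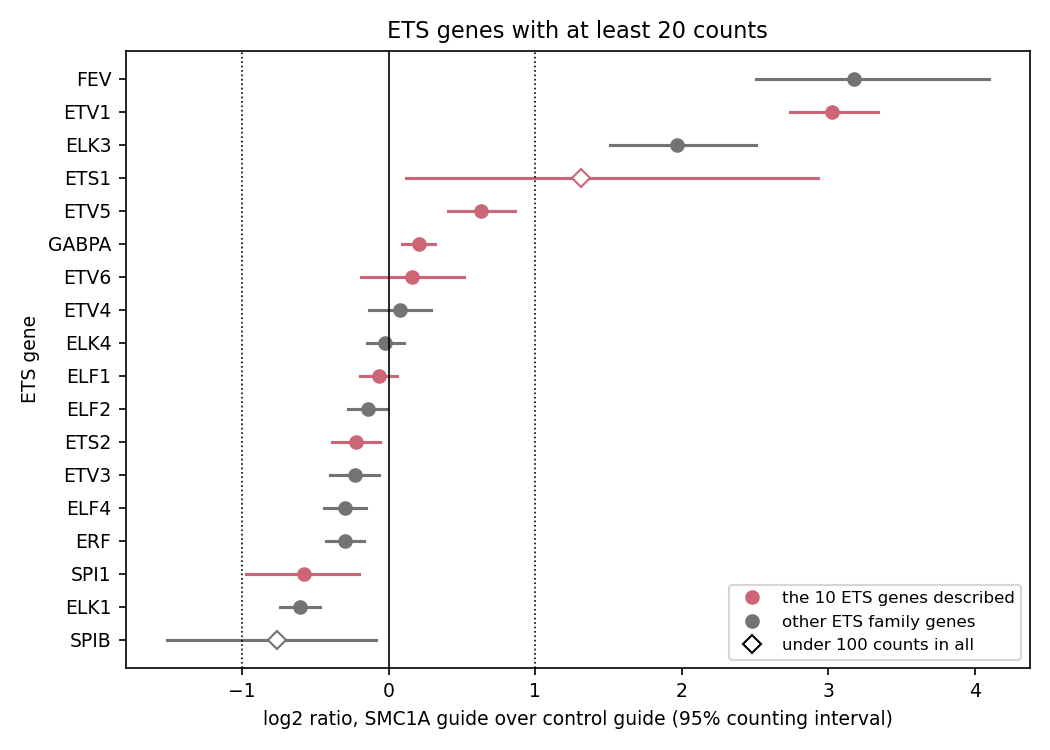
Log2 ratio (SMC1A guide over control guide) of the 18 ETS genes with at least 20 counts, with 95% counting intervals; dotted lines mark 2-fold and open diamonds genes under 100 counts. FEV, ETV1 and ELK3 lie past 2-fold with their whole intervals, and most others lie between -0.61 and 0.21.

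Positions were examined because cohesin shapes chromosome loops. ETV1 lies far from other measured genes. Of 9 annotated genes with a start within 1000 kb of its own, 1 is protein-coding (DGKB, with 1 and 0 counts) and 0 had 20 counts. Around the 10 members together, 35 genes with at least 100 counts, the member ETS2 among them as a neighbour of ERG, started within 500 kb. Of these, 1 was at least 2-fold higher and 0 lower, against the background of 5.11% and 2.32%. It was ACP2, 129.7 kb from SPI1, at 19.3 and 41.7 CPM (1.11), a gene of a lysosomal phosphatase.

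Within 1000 kb, 3 of 64, again with ETS2 counted, were higher and 0 lower (background 5.11% and 2.32%). The additional genes were LIPH, 557.7 kb from ETV5, at 3.13 and 23.3 CPM (log2 ratio 2.87), and MANSC1, 700.7 kb from ETV6, at 3.65 and 8.85 CPM (1.26). MANSC1 belongs to the lowest level group, where 14.5% were at least 2-fold higher. The control level of LIPH also lies in the range of that group (2.84 to 10.7 CPM). The nearest neighbours of ETV5 were TRA2B (-0.26) and DNAJB11 (0.25), those of ETV6 were SMIM10L1 (-0.14) and LRP6 (-0.03), and those of SPI1 were MADD (0.03) and SLC39A13 (0.95). ETS2 lay between DSCR8 (0.77) and PSMG1 (-0.67), GABPA between MRPL39 (-0.63) and ATP5PF (-0.12), and ELF1 between WBP4 (0.16) and KBTBD6 (-0.07). ETS1 and FLI1 shared their nearest measured neighbours, ST3GAL4 (-0.40) and NFRKB (-0.22), and ERG lay between DSCR8 and ETS2.

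Of 14 genes that act with ETS factors and had at least 100 counts, 0 were at least 2-fold higher and 2 lower (background 5.11% and 2.32%). LMO2, a bridging protein of the GATA and TAL1 complex, stood at 95.4 and 23.1 CPM (log2 ratio -2.04, -2.20 to -1.89). RUNX1, which binds beside ETS factors at many blood enhancers, stood at 69.1 and 26.6 CPM (-1.37, -1.53 to -1.22). At the other end were TAL1 at 0.26 and JUN, a partner at composite sites, at 0.70. The GABPA cofactor genes GABPB1 and GABPB2, named beside GABPA after their values were seen, were at -0.37 and 0.07. The median over the 15 partner genes was -0.06, near the -0.01 of all genes. The 6 co-repressor genes that serve ETV6 and its relatives had 0 past 2-fold, from HDAC3 (-0.27) and SIN3A (-0.26) to TBL1XR1 (0.10) and L3MBTL1 (0.20), with a median of -0.09.

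Genes that control ETS factors had 0 of 11 past 2-fold and a median of 0.09. CIC itself (named here with its value known) had 1438 and 1552 counts, a ratio of 0.10. CUL4A and DDB1, components of the ubiquitin ligase that with COP1 and DET1 degrades PEA3 factors, were at -0.53 and -0.35, and DET1 and the ERK gene MAPK3 at 0.22 and 0.32. Of 7 genes with 100 counts on a list that answers to CIC and ERK as the PEA3 genes do, DUSP5, an ERK phosphatase gene, was at least 2-fold higher on 61 and 137 counts (1.15, 0.71 to 1.62), and 0 were lower (background 5.11% and 2.32%). DUSP5, at 3.48 and 7.77 CPM, belongs to the lowest level group, where 14.5% were at least 2-fold higher. SPRED1 was at 0.53, SPRED2 at -0.05 and PHLDA1 at -0.52, and the median was 0.32 over the 11 genes with 20 counts and 0.08 over the 7 with 100. Genes under 100 counts on this list, named after their values were seen, pointed both ways, with DUSP4 at 12 and 46 counts and CCND1, the cyclin D1 gene, at 48 and 5. ETV4 belongs to this list and to the family.

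Target genes of FLI1, ERG, SPI1 and GABPA were read from lists. Of 13 megakaryocyte genes known as FLI1, ERG or GABPA targets, 4 had at least 100 counts, and 2 of these were at least 2-fold higher and 0 lower, against 5.11% and 2.32% of all genes (14.5% higher in the lowest level group, to which ITGA2B belongs). GP6, the platelet collagen receptor, stood at 11.8 and 35.5 CPM (log2 ratio 1.58, 1.36 to 1.82), ITGA2B, the integrin chain of the fibrinogen receptor, at 2.68 and 6.58 CPM (1.28, 0.80 to 1.82), GP1BB at 0.15 and NFE2 at -0.73. PPBP, a platelet chemokine gene named after its counts were seen, had 0 and 23, at least 7.63-fold higher against the limit of 3 counts. The median over 6 genes was 0.71, also with PPBP at this bound, and 7 genes, PF4 and GP9 among them, were at 0 in both libraries. FLI1 and ERG themselves had 0 counts in these libraries.

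Of 21 SPI1 target genes, 4 had at least 100 counts and 0 passed 2-fold. LAPTM5 and BTK were at -0.49 and -0.40, and LYZ and CYBB at 0.42 and 0.45. Over 7 genes with 20 counts the median was 0.45, and without those under 100 counts it was 0.01. Of 10 GABPA target genes with at least 100 counts 0 passed 2-fold, and 9 of 10 had ratios below 0 (8 by library totals), beside 54.3% of all genes with 100 counts (42.1% by library totals). TFB2M, a mitochondrial transcription factor gene, was at 101.4 and 54.9 CPM (-0.88), ATP5F1B, a subunit of ATP synthase, at -0.50, COX6A1 at -0.06 (0.06 by totals) and RB1 at 0.23. Their median was -0.27, or -0.14 by library totals, beside -0.01 and 0.12 for all genes.

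**Figure D4:**
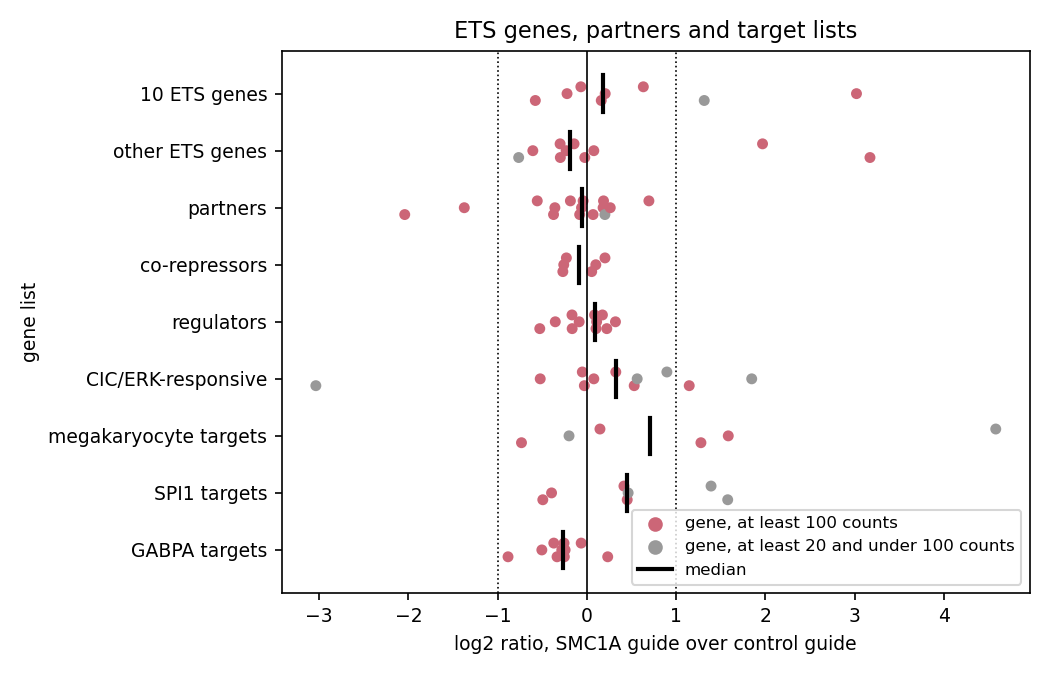
Log2 ratio (SMC1A guide over control guide) of each gene with at least 20 counts in the ETS lists and in the lists of partners, co-repressors, regulators and targets; black bars are list medians and dotted lines mark 2-fold. List medians run from -0.27 (GABPA targets) to 0.71 (megakaryocyte targets, 6 genes), and PPBP (at 4.58, a value set by the prior count since its control count is 0), FEV, CCND1, ETV1 and LMO2 lie farthest from 0.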

How the data were processed

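RNA was measured in 1 library per guide. The estimated counts were deposited by the authors as whole numbers, unscaled. The submitters' processing notes name GRCh38 and the tools STAR 2.7.10a, Salmon 1.10.1 and DESeq2 1.42.1. What each tool did, and the annotation behind the rows, is not given in the sources used here. Symbols came from a table of gene identifiers, and positions and exon lengths from GENCODE release 29, which covers 97.9% of the genes that reach 100 counts. Libraries were scaled by TMM (edgeR 4.0.16, R 4.3.3). Log2 ratios used edgeR's formula with a prior count of 1, folds are plain CPM ratios, and intervals are exact (Clopper-Pearson); without molecular identifiers, reads may repeat a molecule. The calculation was tested on simulated data. The genes, lists and motifs were chosen with earlier results of these data known. Named genes were SMC1A, all ETS genes, the 2 highest and 2 lowest of each list that reach 100 counts, and nearest neighbours (those of ETV1 are not reported here); others are marked. Alternatives were other scalings (library totals, upper quartile, DESeq2 1.42.0 size factors), prior counts of 0.25 and 5, other count limits, transcript length and a wider window. The level groups and the sums without ETV1 or HBE1 were added after seeing the data. A planned comparison of protein sequences was not made.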

Additional observations from a re-analysis of the deposited data

How the results depend on the processing

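ETV1 was at least 2-fold higher under every scaling, prior count and count limit tried, with log2 ratios from 2.97 to 3.15, and 0 of the 10 ETS members were at least 2-fold lower under any of them. Lowering the count limit to 20, or removing it, raised the number of members at least 2-fold higher from 1 to 2, because ETS1 then entered; a limit of 500 left out FEV and ELK3. Over all genes, 579 were higher and 263 lower; a limit of 20 counts gave 1361 and 518, a limit of 500 gave 199 and 140, removing the limit gave 3800 and 2714, and requiring the entire interval beyond 2-fold gave 343 and 143. Scaling by library totals raised the median of all genes with 100 counts by 0.13, gave 766 higher and 195 lower, and turned the signs of ELF1 and ELK4 and of the partner and co-repressor medians (0.07 and 0.04). No paired analysis was possible because each guide had 1 library. Depth limits ETS1, FLI1, ERG and the other ETS genes under 100 counts.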
